A study of Homo sapiens with 6 samples.

Results

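The interleukin-1 (IL-1) family and inflammasome genes were followed as 10 genes, chosen by name: the ligand genes IL1A, IL1B, IL36G and IL18, the antagonist gene IL1RN, the receptor genes IL1R1 and IL18R1, and the inflammasome genes NLRP3, PYCARD and CASP1. Each of the 10 was found by its Ensembl identifier on a primary chromosome, among the 63677 genes of the count table. The table came from RPMI8226, an established human multiple myeloma cell line, wild type by its label and grown in medium with serum. Cells received 100 nM GST-PTR1, a fusion of glutathione-S-transferase with the PTR1 domain of HAPLN1, a matrix protein, or 100 nM GST by itself, for 6 h. Both proteins were made in Escherichia coli, and the study assayed them for lipopolysaccharide. It reported contamination a few orders of magnitude under the amount that its NF-κB binding assay detects in these cells. Each treatment had 3 libraries from biological replicates of this single line. The comparison asked which transcripts differed with GST-PTR1.

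IL-1 family cytokines are signals of injury and infection, made chiefly by myeloid and epithelial cells. IL-1α and IL-1β share the receptor IL1R1 with its partner IL1RAP, and the antagonist encoded by IL1RN occupies the same receptor without signaling. IL-1β and IL-18 are made as inactive precursors. They are cut by caspase-1 inside the inflammasome, a complex of a sensor such as NLRP3, the adaptor ASC (encoded by PYCARD) and caspase-1. In macrophages, a priming step raises IL1B and NLRP3 transcripts before the complex forms.

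With GST-PTR1 the transcripts of IL36G, IL1RN and IL1B were higher in every library than in any GST library, and all 3 genes lie in the IL-1 ligand cluster of chromosome 2. IL1A of the same cluster did not overlap either, but had 3 counts at most. The share of all genes without overlap was not computed, so this is a description. PYCARD was slightly lower, CASP1 and IL18 did not pass the test, and the receptor genes and NLRP3 stayed at or near the limit of detection. The proximal promoters of IL36G, IL1B and IL1RN are shown, a choice made from these values. They are RefSeq sequences on GRCh38.p14, from 250 bases before to 50 bases after an annotated start. IL36G lies at chr2:112977756-112978055 on the plus strand, IL1B at chr2:112836730-112837029 on the minus strand, and the most downstream of the 3 listed starts of IL1RN at chr2:113127348-113127647 on the plus strand. Capitals mark matches to any of 4 motifs searched on both strands. They were the core promoter hexamer TATAAA, the C/EBP letters TTGCNNAA, the AP-1 heptamer TGAGTCA with any base in its middle, and the κB consensus.
IL36G: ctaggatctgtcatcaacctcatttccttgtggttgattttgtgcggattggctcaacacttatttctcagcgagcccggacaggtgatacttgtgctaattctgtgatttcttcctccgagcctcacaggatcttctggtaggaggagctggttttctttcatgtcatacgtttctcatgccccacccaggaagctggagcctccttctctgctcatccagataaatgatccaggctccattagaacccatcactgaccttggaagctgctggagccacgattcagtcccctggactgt
IL1B: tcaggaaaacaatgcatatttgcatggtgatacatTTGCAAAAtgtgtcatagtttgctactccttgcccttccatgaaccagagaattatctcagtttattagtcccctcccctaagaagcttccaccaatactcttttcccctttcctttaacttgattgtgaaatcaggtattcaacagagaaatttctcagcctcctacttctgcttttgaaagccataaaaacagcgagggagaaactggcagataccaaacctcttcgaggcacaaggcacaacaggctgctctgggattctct
IL1RN: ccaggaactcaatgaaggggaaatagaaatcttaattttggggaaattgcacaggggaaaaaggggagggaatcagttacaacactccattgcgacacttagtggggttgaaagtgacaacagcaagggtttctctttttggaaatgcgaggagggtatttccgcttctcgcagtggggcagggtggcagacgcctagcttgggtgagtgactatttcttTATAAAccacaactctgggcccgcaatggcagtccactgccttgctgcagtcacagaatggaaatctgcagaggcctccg

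The IL1B window held a C/EBP match from base -215 to -208 of the start, and the IL1RN window held the hexamer from -30 to -25. The IL36G window had no match to these letters. The most upstream start of IL1RN had an AP-1 match from -223 to -217. None of these matches overlapped another. Windows of other members held matches too. NLRP3 had the hexamer from -29 to -24, and a start of IL1R1 had a C/EBP match from 34 to 41. IL1A had AP-1 matches and the hexamer, and a start of IL18R1 had a κB match from -244 to -235. PYCARD had no match. Of 34943 RefSeq promoter windows of this length, 11.3% held the κB consensus, 7.72% the AP-1 letters, 7.35% the hexamer and 10.5% the C/EBP letters. CASP1 and IL18 had no entry in the promoter table.

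Counts were tested over 16926 genes, those with enough counts for edgeR's filter, with edgeR's quasi-likelihood test and Benjamini-Hochberg adjustment. Levels are counts scaled to a common library size (CPM) on TMM-scaled library totals. A treatment with 3 counts or fewer in each of its libraries was set at the limit of detection, which is 0.18 CPM in the smallest library and 0.0761 CPM in the largest, and a fold against it is a lower bound. Such limits cover counting error only. Of the 10 genes, 5 were tested. IL1RN and IL36G were higher with GST-PTR1, both by at least 2-fold, PYCARD was lower, and CASP1 and IL18 were not called. Over all genes tested, 9.15% were higher, 3.68% were at least 2-fold higher and 11.4% were lower. IL1RN and IL36G passed the filter through the GST-PTR1 libraries alone, so their calls are not independent of having been tested, and the counts of members are a description. The median log2 fold change was 0.21 for the 5 tested members and 0.01 for all genes tested. In the alternatives that also tested IL1B, the members' median was 1.73 to 2.38, and 3 members were higher. These were a filter of at least 1 count, the 4 libraries with recurring column numbers, and leaving out any GST library or the smallest GST-PTR1 library. The filter of at least 1 count also tested IL1A, IL18R1 and NLRP3. Thinned to the smallest library total, 4 members were tested, without IL1B or IL18, and the median was 2.05. The median thus depends on which members with low counts were tested. In the main test, the other 5 genes had too few counts for the filter.

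**Figure D1:**
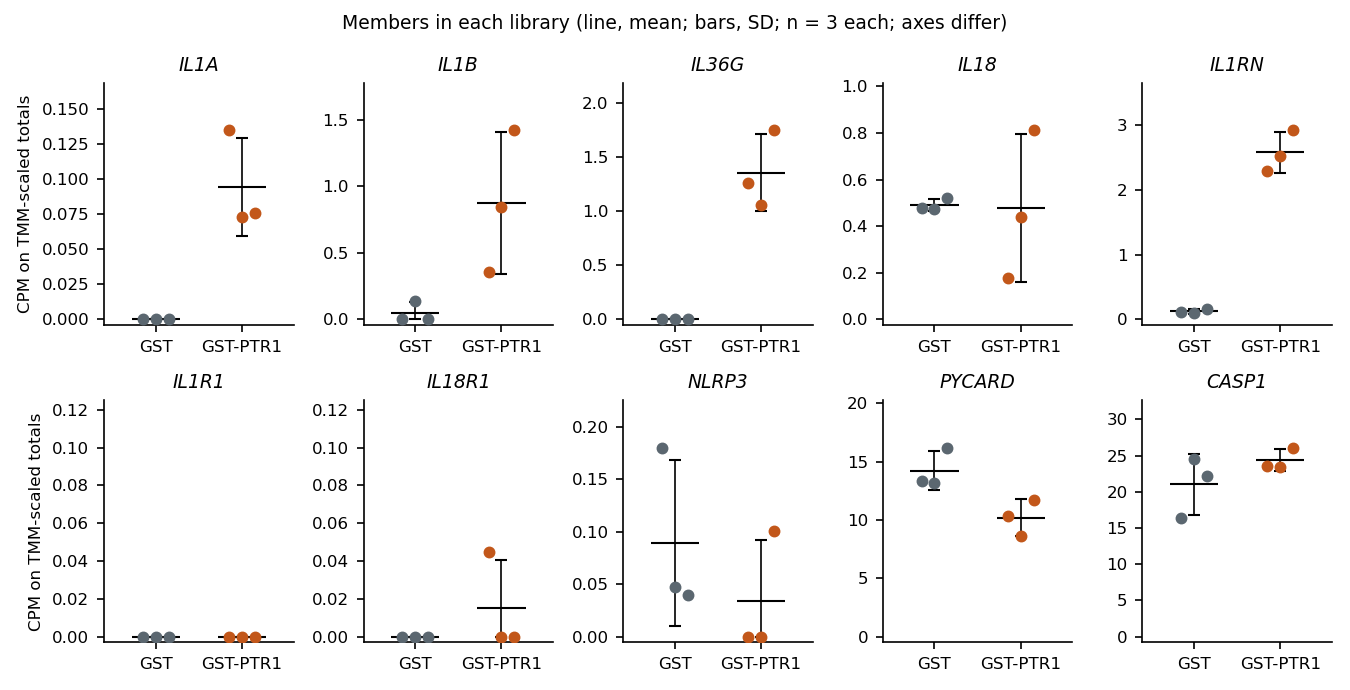
CPM on TMM-scaled totals of each of the 10 genes in the 3 GST and 3 GST-PTR1 libraries, with a point for each library, a line at the mean and bars for the SD, on a separate axis for each gene. IL1B, IL36G and IL1RN lie higher in all GST-PTR1 libraries, as does IL1A with 3 counts at most. PYCARD lies lower, and IL1R1 is at 0 throughout.

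Among the ligands, IL36G went from 0 counts to a low level in every GST-PTR1 library. It encodes IL-36γ, an agonist known best from epithelia, and lies on chromosome 2 of GRCh37 (ENSG00000136688, 113730780 to 113743242). It had 0 counts in each of the GST libraries of 15202503, 20077280 and 23453473 total counts. The GST-PTR1 libraries of 22874133, 28837431 and 44688737 counts held 28, 29 and 69 counts, or 1.26, 1.06 and 1.75 CPM. Against the limit of detection in GST, the mean of 1.36 ± 0.355 CPM (SD, n = 3) was at least 9.19-fold higher. edgeR's quasi-likelihood test gave it an adjusted p of 0.000158. In bulk libraries, more cells making a transcript and more of it per cell cannot be told apart.

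IL1B (ENSG00000125538, chromosome 2, 113587328 to 113594480) encodes the IL-1β precursor. Its counts were 0, 3 and 0 with GST and 8, 23 and 56 with GST-PTR1, that is 0, 0.142 and 0 CPM against 0.359, 0.842 and 1.42 CPM. The treatments did not overlap, and the mean of 0.873 ± 0.531 CPM (SD, n = 3) was at least 5.92-fold above the limit of detection in GST. The spread within GST-PTR1 was wide, and the deepest library was the highest. IL1B did not pass the filter of the main test. In edgeR's quasi-likelihood test it was reached in 4 of the 6 fits without 1 library, with an adjusted p from 0.000718 to 0.0383. It entered those fits through its GST-PTR1 counts.

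IL1A (ENSG00000115008, chromosome 2, 113531492 to 113542167), which encodes IL-1α, had 0 counts in every GST library. It had 3, 2 and 3 counts in the GST-PTR1 libraries. Both treatments were at the limit of detection, so no fold is given. IL18 (ENSG00000150782, chromosome 11, 112013974 to 112034840) had 8, 10 and 13 counts with GST and 4, 12 and 32 with GST-PTR1. These were 0.48, 0.473 and 0.521 CPM against 0.179, 0.439 and 0.811 CPM, so the GST libraries lay within the range of the GST-PTR1 libraries. The log2 fold change was 0.06 ± 0.46 (standard error; 95% interval -0.94 to 1.07), with an adjusted p of 0.935 in edgeR's quasi-likelihood test. That interval includes falls and rises of about 2-fold.

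The antagonist gene IL1RN (ENSG00000136689, chromosome 2, 113864791 to 113891593) was also higher with GST-PTR1. It had 2, 2 and 4 counts with GST and 51, 69 and 115 with GST-PTR1. In CPM these were 0.12, 0.0947 and 0.16 against 2.29, 2.53 and 2.92, and the GST-PTR1 libraries were tightly grouped. The mean went from 0.125 ± 0.0331 to 2.58 ± 0.317 CPM (SD, n = 3 each), a fitted 19.7-fold. On the log2 scale the difference was 4.30 with a standard error of 0.33 and an adjusted p of 5.2e-06 (edgeR's quasi-likelihood test). Its size rests on 8 counts in the 3 GST libraries together.

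To compare levels between genes, counts were also divided by exon length and library total (RPKM). The summed RPKM of IL1A, IL1B, IL1RN, IL18 and IL36G was 0.241, 0.268 and 0.263 with GST and 1.81, 1.91 and 2.62 with GST-PTR1. IL18 made up 83.2%, 70.6% and 80.1% of that sum with GST, and 3.67%, 8.28% and 10.4% with GST-PTR1. The makeup of the sum thus changed from mostly IL18 to mostly IL36G and IL1RN. IL18 itself was not called (log2 fold change 0.06), and its share fell as the sum rose. Its GST shares rest on 8, 10 and 13 counts of IL18. With GST-PTR1, IL36G held 43.3 ± 5.43% and IL1RN 35.5 ± 4.58% of the sum (SD, n = 3). IL1B held 11.7 ± 4.86% and IL1A 2.11 ± 1.15%.

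**Figure D2:**
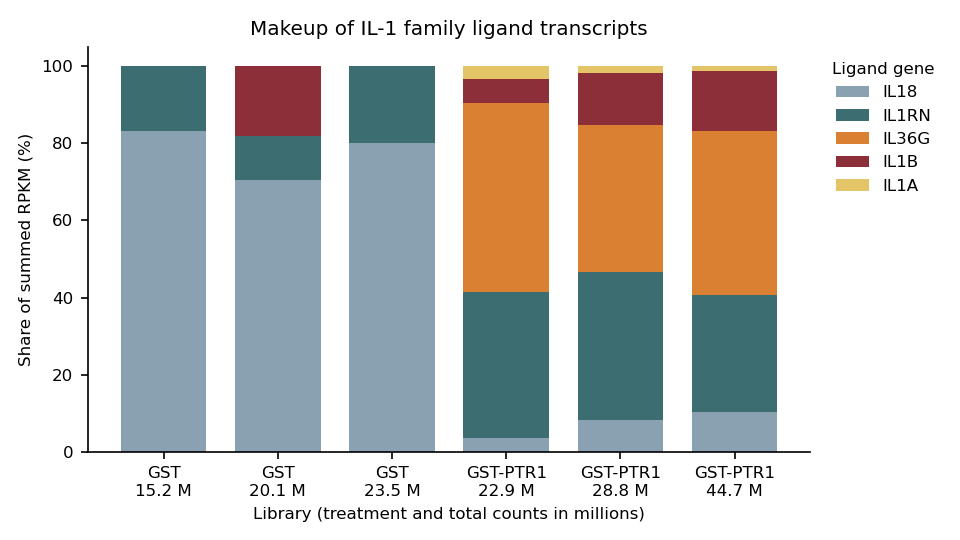
Share of each ligand gene, in percent, in the summed RPKM of the 5 ligand genes in each library, named by treatment and total counts (M). IL18 fills over 70% of each GST bar, while IL36G and IL1RN fill most of each GST-PTR1 bar.

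In GST-PTR1 libraries the RPKM of IL36G (0.887, 0.729 and 1.12) and of IL1RN (0.685, 0.735 and 0.79) overlapped, so these 2 neighbours in the order did not differ beyond their spread. IL1B was lower than both, at 0.113, 0.258 and 0.405 RPKM, and overlapped IL18 at 0.0665, 0.158 and 0.272 RPKM. The ratio of IL1B to IL1RN in the same library was 0.165, 0.351 and 0.512, so antagonist transcript exceeded agonist transcript in each. With GST this ratio was 0, 1.58 and 0, resting on 3 IL1B counts in 1 library (exact permutation test, two-sided, p = 1, where 3 libraries against 3 cannot go below 0.1). IL1RN itself had 2 to 4 counts there, so the ratios of the treatments could not be compared. The IL36G to IL1RN ratio in the GST-PTR1 libraries was 1.3, 0.992 and 1.42. Levels of all ligand genes were low beside those of CASP1 and PYCARD, which were between 4.82 and 10.4 RPKM in every library.

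The receptor genes were not detectable at this depth. IL1R1 (ENSG00000115594, chromosome 2, 102681004 to 102796334), the signaling receptor for IL-1α and IL-1β, had 0 counts in all 6 libraries. IL18R1 (ENSG00000115604, chromosome 2, 102927989 to 103015218), the IL-18 binding chain, had 1 count in all, in the GST-PTR1 library of 22874133 total counts. IL18R1 shares 2.19% of its exon bases with IL1RL1 on the same strand, where reads were not counted. No difference between treatments was detectable for either gene.

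Of the inflammasome genes, CASP1 and PYCARD were tested and NLRP3 was not. NLRP3 (ENSG00000162711, chromosome 1, 247579458 to 247612410), the sensor, had 3, 1 and 1 counts with GST and 0, 0 and 4 with GST-PTR1. GST was at the limit of detection, and a single GST-PTR1 library was above it, so no fold is given. CASP1 (ENSG00000137752, chromosome 11, 104896170 to 104972158), the protease, had 16.4, 24.5 and 22.2 CPM with GST and 23.5, 23.4 and 26.1 CPM with GST-PTR1. The treatments overlapped, and the log2 fold change was 0.21 ± 0.15 (standard error; 95% interval -0.12 to 0.54), with an adjusted p of 0.334 in edgeR's quasi-likelihood test. CASP1 shares 0.645% of its exon bases with CARD16 and CARD17P on its strand.

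PYCARD (ENSG00000103490, chromosome 16, 31212806 to 31214771), the adaptor gene, had 13.3, 13.2 and 16.2 CPM with GST and 10.3, 8.6 and 11.7 CPM with GST-PTR1. Every GST-PTR1 library was below every GST library. The mean went from 14.2 ± 1.70 to 10.2 ± 1.56 CPM (SD, n = 3 each). On the log2 scale the difference was -0.48 with a standard error of 0.15 and an adjusted p of 0.0476 (edgeR's quasi-likelihood test). This call was marginal: without the GST libraries of 20077280 or 23453473 counts, or the GST-PTR1 libraries of 22874133 or 28837431 counts, its adjusted p was 0.0632, 0.182, 0.075 and 0.176 in turn. On the opposite strand, PYCARD-AS1 overlaps 59.7% of the exon bases of PYCARD. Reads were counted by strand, and PYCARD-AS1 itself had 4 to 14 counts in each library.

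The neighbours of the ligand genes were read as a description. Between the outer ends of IL1A and IL1RN, over 360 kb, the annotation lists 15 genes. Together they held 82 counts with GST and 525 with GST-PTR1, over 3 libraries each, not scaled for the larger GST-PTR1 totals. Most of the GST counts were on the pseudogenes POLR2DP1, CDK8P2 and XIAPP3. Most of the GST-PTR1 counts were on IL1RN, IL36G and IL1B. The filter let 2 of the 15 into the test, IL36G and IL1RN. Other cytokine genes of the interval were close to 0: IL36B, IL36RN, IL37 and IL1F10 had 1 count at most in any library, and IL36A had 2 in each GST library and 0, 4 and 1 with GST-PTR1. The nearest protein-coding genes outside the interval were not called. CKAP2L had a log2 fold change of -0.20 (adjusted p = 0.211) and PSD4 of -0.28 (adjusted p = 0.232) in edgeR's quasi-likelihood test. In the receptor cluster between IL1R2 and IL18RAP, 461 kb that include IL1R1 and IL18R1, 11 of 12 genes had 0 counts in every library.

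CASP1 also lies among relatives, a 197 kb cluster of chromosome 11 that was chosen for description after its values were seen. CASP5 (ENSG00000137757), next to CASP1 and known as a sensor of cytosolic lipopolysaccharide, had 0, 1 and 4 counts with GST and 24, 35 and 87 with GST-PTR1. The log2 fold change was 4.22 ± 0.58 (standard error), with an adjusted p of 0.00051 in edgeR's quasi-likelihood test. Its size rests on 5 counts in the 3 GST libraries together. The value was 3.80 to 5.64 when a library was left out, the highest without the GST library of 23453473 counts. Like IL1RN and IL36G, CASP5 passed the filter through the GST-PTR1 libraries alone. CASP4, the second lipopolysaccharide-binding caspase of the cluster, had 35.1, 36.5 and 38.2 CPM with GST and 54.2, 55.0 and 73.5 CPM with GST-PTR1, and its log2 fold change was 0.74 (adjusted p = 0.00281 by edgeR). CARD16, which encodes a CARD-only regulator of caspase-1, had a log2 fold change of 0.17 (adjusted p = 0.591) and the pseudogene CASP1P2 of 0.51 (adjusted p = 0.0603). CASP4 and CASP5 were thus called where CASP1 was not. Whether they differed from CASP1 was not tested.

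**Figure D3:**
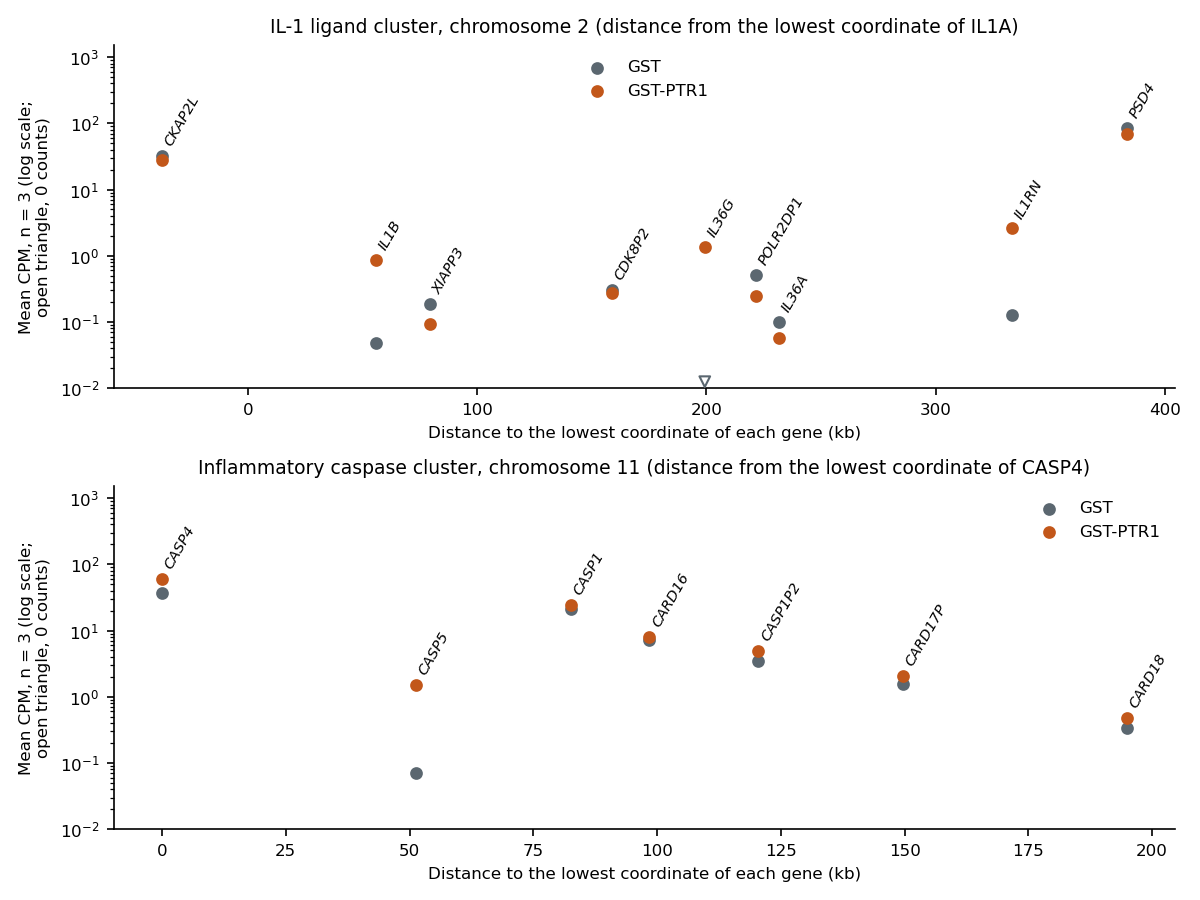
Mean CPM on TMM-scaled totals (log axis, n = 3 libraries for each point) of genes with more than 3 counts in any library, against distance in kb, in the ligand cluster with its flanking genes (top) and the caspase cluster (bottom). IL1B, IL36G, IL1RN and CASP5 are apart between GST and GST-PTR1, while CKAP2L, PSD4, CASP1 and CARD16 nearly coincide.

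Beyond the 10 genes, 6 lists of pathway genes held 47 genes that the table named. Of these, 26 were tested, and edgeR called 9 higher with GST-PTR1 (adjusted p under 0.05), among them 4 by at least 2-fold, beside 9.15% and 3.68% of all genes tested. These counts include CASP5, which passed the filter through the GST-PTR1 libraries alone. The lists were chosen with earlier results of these data known, so the counts are a description. None was lower by edgeR (0 genes, and 2 at an unadjusted p under 0.05), beside 11.4% of all genes tested. The count of lower genes was also 0 by DESeq2 and by limma voom. Scaling by library totals, which shifted the median of all genes by -0.20, gave 7 higher and 4 lower. Over all 16926 genes tested, that scaling gave 927 higher and 3788 lower. The median log2 fold change of the 26 genes was 0.19. A further 17 of the 47 were at the limit of detection with both treatments.

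Of 9 other sensor genes, 5 were tested and 2 rose. AIM2, which encodes a sensor of cytosolic DNA, had 4.56, 5.25 and 5.49 CPM with GST and 25.9, 19.7 and 26.2 CPM with GST-PTR1. The log2 fold change was 2.22 ± 0.16 (standard error), with an adjusted p of 2.49e-06 in edgeR's quasi-likelihood test. With GST-PTR1 its level per length, 11.1 ± 1.68 RPKM, was above that of CASP1 in every library, while with GST it was 2.72 ± 0.212 RPKM and below it. NLRP7 had 25.8, 40.6 and 38.8 CPM with GST and 50.1, 67.7 and 85.2 CPM with GST-PTR1, and its log2 fold change was 0.95 (adjusted p = 0.00811 by edgeR). NLRP1, CARD8 and NAIP did not pass, with log2 fold changes of 0.16, -0.13 and -0.78. NLRP6, singled out after its values were seen, had 7, 6 and 13 counts with GST and 3, 3 and 2 with GST-PTR1, without overlap, and was not in the main test. When every gene with at least 1 count was tested, NLRP6 and NAIP were called lower by edgeR (log2 fold changes -2.09 and -0.75, adjusted p = 0.00824 and 0.0434). That fit had a median of 1.26e+05 degrees of freedom, beside 11.2 with DESeq2 size factors. Its p-values thus make little use of each gene's own spread and may be too small. In edgeR's main test the adjusted p of NAIP was 0.0876. NLRC4, MEFV and NLRP12, sensors known from myeloid cells, were at the limit of detection with both treatments.

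All 7 effector and activator genes in the table were tested, and CASP4, CASP5, NINJ1 and P2RX7 rose. NINJ1, which encodes the membrane protein that ruptures dying cells, had 77.1, 86.3 and 95.5 CPM with GST. With GST-PTR1 it had 167, 174 and 219 CPM, and its log2 fold change was 1.11 (adjusted p = 0.000159 by edgeR). P2RX7, the ATP-gated channel that activates NLRP3, had a log2 fold change of 0.72 (adjusted p = 0.0248 in the edgeR test), but its adjusted p was between 0.0511 and 0.108 without either of 2 GST libraries or of 2 GST-PTR1 libraries, those named above for PYCARD. GSDMD, the pore-forming target of caspase-1, had a log2 fold change of -0.21 (adjusted p = 0.239) and PANX1 of 0.22 (adjusted p = 0.244), and NEK7 did not pass either. Of the CARD-only and pyrin-only inhibitor genes, CARD16 was the 1 tested of 4 in the table.

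Of the 12 genes that carry the signal from IL-1 receptors, 10 were tested and 3 rose. PELI1, a ubiquitin ligase acting on IRAK kinases, had 61.8, 66.9 and 58.6 CPM with GST and 300.0, 318 and 342 CPM with GST-PTR1. The log2 fold change was 2.36 ± 0.11 (standard error), with an adjusted p of 1.04e-07 in edgeR's quasi-likelihood test. IRAK2 had a log2 fold change of 0.89 (adjusted p = 0.0119), and the adaptor MYD88 of 0.38 (adjusted p = 0.0449, or 0.051 to 0.138 when any library was left out). IRAK1, IRAK4, TRAF6, TOLLIP, TAB2, TAB3 and MAP3K7 did not pass, with values from -0.27 to 0.23. Among 9 other receptor and binding protein genes, IL1RAP, SIGIRR and IL18BP were tested and none was called by edgeR (0 genes higher and 0 lower, 1 at an unadjusted p under 0.05, and 0 called by DESeq2 or limma voom). Their log2 fold changes were -0.16, -0.43 and 0.31. IL1R2, IL1RL1, IL1RL2 (the IL-36 receptor) and IL18RAP had 0 counts in every library.

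**Figure D4:**
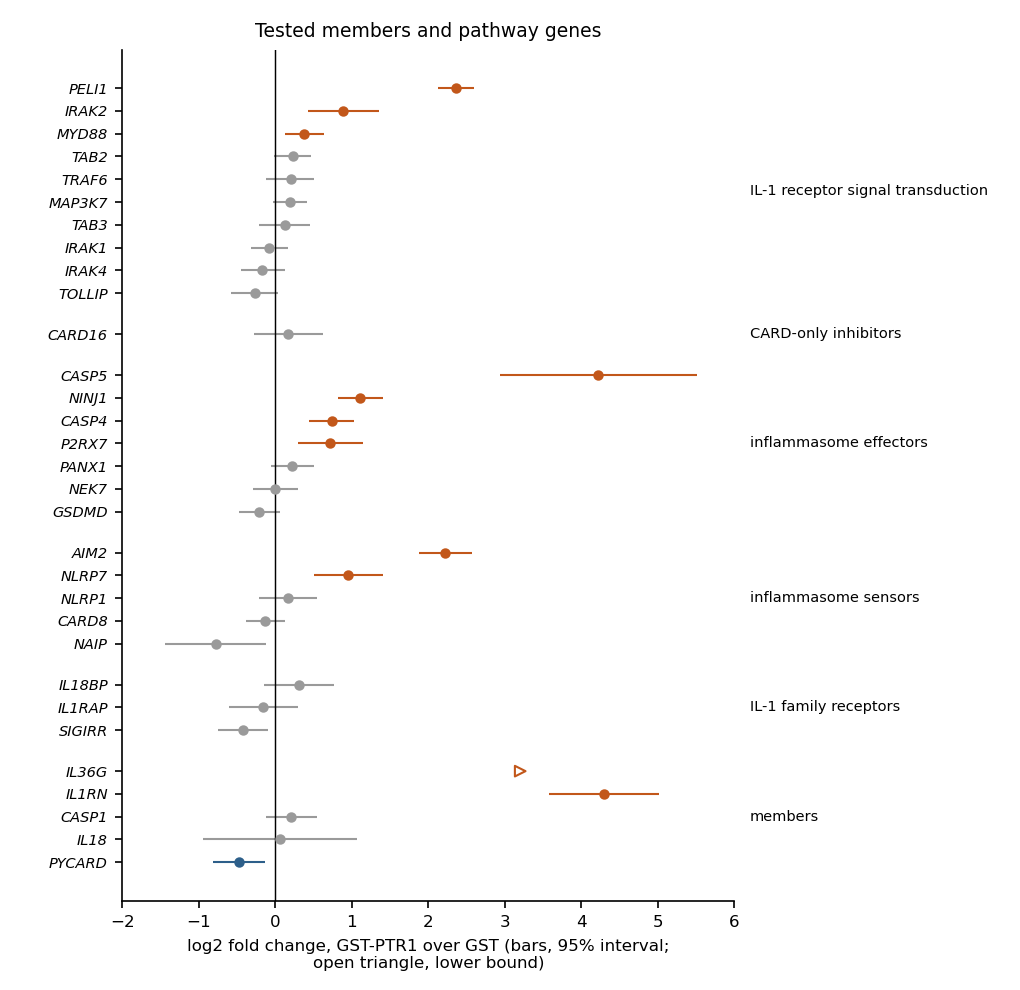
Log2 fold change of GST-PTR1 over GST, with its 95% interval, for the 5 tested members and 26 other pathway genes by list; colored genes were called by edgeR (orange higher, blue lower), grey genes did not, and the open triangle for IL36G is its lower bound. The rises lie in IL36G, IL1RN, sensors, effectors and signal transduction, and no receptor gene was called.

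Markers of other cells were read beside these results. All 8 plasma cell markers were detected, at a summed 669 to 912 RPKM with GST and 571 to 676 RPKM with GST-PTR1, so the markers of the labelled cell type were present. By edgeR, SLAMF7, PRDM1 and IRF4 were higher (log2 fold changes 1.52, 1.35 and 0.65) and TNFRSF17, SDC1 and XBP1 lower (-1.41, -1.03 and -0.47). Of 9 monocyte and macrophage markers in the table, 8 passed 3 counts in some library. Their sum was 3.86 to 6.78 RPKM with GST and 9.35 to 18.1 RPKM with GST-PTR1, most of it S100A9. Of 3 tested, S100A9 and FCGR1A were higher in edgeR's quasi-likelihood test (log2 fold changes 1.68 and 1.22, adjusted p = 0.00462 and 0.0425). LYZ had 1 count at most, and CD14 had 6 to 15 counts with no call (log2 fold change -0.21, adjusted p = 0.748). Of 5 neutrophil markers MPO, ELANE and FCGR3B were at 0, and the sum was 0.122 to 0.145 RPKM with GST and 0.0322 to 0.0645 RPKM with GST-PTR1. The 6 epithelial markers summed to 57.9 to 63.5 RPKM with GST and 39.7 to 43.1 RPKM with GST-PTR1, KRT18 was lower (log2 fold change -0.65, adjusted p = 0.000639 by edgeR), and KRT5 and KRT14 were not called (-0.02 and -0.83). T and NK markers summed to 1.67 to 1.78 RPKM with GST and 0.799 to 0.983 RPKM with GST-PTR1, and 5 of 7 did not pass 3 counts in any library. The other 2, CD8A and CD4, were lower (log2 fold changes -0.70 and -1.58, adjusted p = 0.0132 and 0.0147 by edgeR). Within GST-PTR1, S100A9 was at 5.07, 6.52 and 11.2 CPM in the libraries of 22874133, 28837431 and 44688737 counts, the same order as IL1B, IL18, IL1RN and the library totals. The part of other cells or of depth in these values was not tested.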

How the data were processed

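RNA-Seq was done on 6 libraries of RPMI8226 cells. Per the file headers, the authors deposited raw counts of reads per gene, made with featureCounts version 1.5.0-p1 on the Ensembl release 75 annotation of GRCh37, with strand setting 2 for a stranded library. Reads on several genes of 1 strand, or mapped to several places, were left out, so counts on overlapping or copied genes are incomplete. The submitters' processing notes name FastQC, Subread, featureCounts and limma without their roles, and the aligner is not given in the sources used here. The deposited table also holds the exon length of each gene, in bases, used for RPKM on library totals. The deposited counts were not normalized.

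Column names gave the treatment but not the replicate number, so libraries are named by total counts and the main fit used no pairing. Totals were 15202503 to 23453473 with GST and 22874133 to 44688737 with GST-PTR1, and 3 counts were worth 0.0761 to 0.18 CPM. The smallest chi-square per gene between libraries of 1 treatment was 7.66, above sampling noise, and all 6 counted as separate samples.

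Tests were run in R 4.3.3 with edgeR 4.0.16 (TMM, filterByExpr, glmQLFit, glmQLFTest) on the whole table, with Benjamini-Hochberg adjustment and a threshold of 0.05, after a check on simulated data. Alternatives were DESeq2 size factors, library totals, DESeq2 1.42.0, limma 3.58.1 (voom), 2 other filters, each library left out, thinning, a test against a 2-fold change, RPKM on TMM-scaled totals, and shares of counts. After the data were seen, a blocked and an unblocked fit were added on 4 libraries, those with numbers that recur between the treatments in the column names. Figures used Python 3.11.15, pandas 2.3.3 and matplotlib 3.10.9.

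All 10 members are named. Of each list, genes that were called, the highest or not detected could be named, and genes of the chromosome 2 clusters with their place. The chromosome 11 cluster was chosen after its values were seen. The members and lists were chosen with earlier results of these data known, the lists from general knowledge. Of 95 listed genes, 92 were matched; TXNIP, CARD17 and MRC1 are not analysed here. Markers were those of plasma, monocyte, neutrophil, T and NK, and epithelial cells. Promoters came from RefSeq on GRCh38.p14, and gene positions are on GRCh37.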

Additional observations from a re-analysis of the deposited data

How the results depend on the processing

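The rises of IL1RN and IL36G kept their direction and an adjusted p under 0.05 in each alternative that tested them. Except for IL1RN with the filter of at least 1 count, they entered these tests through the GST-PTR1 libraries. This agreement is therefore not independent of the filter. With at least 10 counts required in every library, neither was tested, and 0 members were higher and 0 lower. PYCARD stayed at a log2 fold change of -0.48 under that filter (adjusted p = 0.0524 in edgeR's quasi-likelihood test) and against a fold change of 2, which called 0 members lower. Leaving out each library gave -0.58 to -0.36 for PYCARD, and 0 to 1 members lower. The cause was not tested. IL18 changed sign, to -0.15 with library totals, -0.18 with limma voom and -0.61 when the 44688737-count GST-PTR1 library was left out, and was not called in any. Leaving out each library gave -0.61 to 0.38. With library totals, which lower all values, 4 pathway genes were lower, beside 3788 of all 16926 genes tested. Leaving out each library gave 0 to 1 pathway genes lower, beside 1179 to 1818 over all genes. With every gene of at least 1 count 2 were lower, beside 2306 of 31617 genes, in the fit with the limit given above for NLRP6. P2RX7 (adjusted p = 0.0825 by edgeR) and MYD88 (0.259) were not called with library totals. A test against a fold change of 2 called 3 pathway genes higher, AIM2, CASP5 and PELI1, beside 339 of all 16926 genes tested. On TMM-scaled totals IL1RN with GST-PTR1 was at 0.791 RPKM, IL18 with GST at 0.187 RPKM and CASP1 with GST-PTR1 at 6.55 RPKM.

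No paired fit of all 6 libraries was possible because only 2 numbers in the column names recur in both treatments, and those are not the labelled replicate numbers. Deviations of same-numbered libraries from their treatment's mean correlated at 0.25 and -0.03 across genes, so the numbers were not taken to pair the libraries. On those 4 libraries, in a fit chosen after seeing the data, the replicate block gave 3 members higher (with IL1B) and 1 lower. It also gave 8 pathway genes higher and 0 lower. These member and pathway counts were the same without the block. Over all 17343 genes tested, 1603 were higher and 1715 lower with the block, and 1790 and 1848 without it. IL1B, IL1RN and IL36G entered these fits through the GST-PTR1 libraries. The unblocked and blocked fits had a median of 56.2 and 1.73e+04 degrees of freedom, so the blocked p-values have the limit given above for NLRP6. MYD88 was not called in either (adjusted p = 0.0696 without and 0.0951 with the block, by edgeR). Levels of IL1A, IL18R1 and IL1R1, at 3 counts or fewer in every library, could not be compared. Nor could those of NLRP3, which had 4 counts in a single library and 3 or fewer elsewhere. Folds of IL36G and IL1B are lower bounds.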
